A study of Arabidopsis thaliana with 12 samples.

Results

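The chloroplast NADH dehydrogenase-like (NDH) complex was represented by 5 nuclear genes, 2 subunits (*NdhS* and *NdhN*), 1 assembly factor (*CRR41*), 1 RNA editing factor (*CRR21*) and 1 protein needed for NDH-dependent electron flow (*PIFI*). They were taken by function from the 691 genes that the platform annotation ties to a probe of their own (692 such probes, out of 3437 in all), with the values of the stn8 against WT comparison already known. Their differences between the groups are therefore a description, and no p-value is given for them.

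The samples were total RNA of *Arabidopsis thaliana*, 6 arrays titled stn8 and 6 titled WT (ecotype Columbia 0). STN8 is a kinase that sits in the thylakoid and phosphorylates photosystem II. The source field gives wild type, Columbia 0, for all 12 samples, so the mutant group rests on the titles. Apart from that field, the labels do not state the background of the mutant. Nor do they state the allele, the tissue, the age or the growth conditions. Whether the numbered arrays came from separate plants is not stated either, so the spread between arrays may be technical. *STN8*, *STN7* and the 2 thylakoid phosphatases of these kinases had no probe of their own, and neither had any of 8 marker genes of leaf, seed, epidermis and senescence, so genotype and tissue were not checked from transcript levels. In such samples a smaller share of green cells and less RNA per cell cannot be told apart.

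The NDH complex sits in the thylakoid membrane, takes electrons from ferredoxin and passes them to plastoquinone. It serves cyclic electron flow around photosystem I and chlororespiration. Part of its subunits are encoded in the plastid and part in the nucleus, and nuclear factors edit the plastid transcripts, fold and assemble the stromal arm and attach the complex to photosystem I.

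Values are the deposited intensities, on a linear scale with no unit, and they measure the brightness of a probe, so probes are not ranked against each other as transcript levels. Log2 fold changes are stn8 minus WT after quantile normalization, with the standard error (SE) of a limma fit over all probes. Array medians were 0.330 to 0.349 in stn8 and 0.297 to 0.369 in WT. Within WT they were highest on arrays 3 and 4 (0.369 and 0.368) and lowest on arrays 5 and 6 (0.297 and 0.301). Arrays 5 and 6 of WT stood apart from the other WT arrays, with Pearson's r across probes of 0.905 to 0.921 against at least 0.952 among WT arrays 1 to 4, and the log2 fold changes are given with and without them.

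The 5 genes did not differ in 1 direction. *NdhS* and *CRR41* were higher in stn8, *NdhN* was lower, and the values of *CRR21* and *PIFI* overlapped between the groups. The 6 stn8 values lay outside the 6 WT values for 3 of 5 members, where 55.6% of all probes showed such a separation. The limma threshold (adjusted p below 0.05) was passed by 3 of 5 members, 2 higher and 1 lower in stn8, against 70.4% of all probes (34.7% higher and 35.8% lower), and nothing is read from this count because the members were chosen on the same comparison. The share of all probes called was 58.5% with neighbouring arrays averaged and 62.6% with them as a random block, and 3 of 5 members passed in both. With the sample number as a replicate block, *CRR21* also passed, which made 4 of 5. The median log2 fold change of the 5 was -0.07 and that of all probes 0, and the median size of the change, ignoring direction, was 0.75 for the members and 0.78 for all probes.

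**Figure D1:**
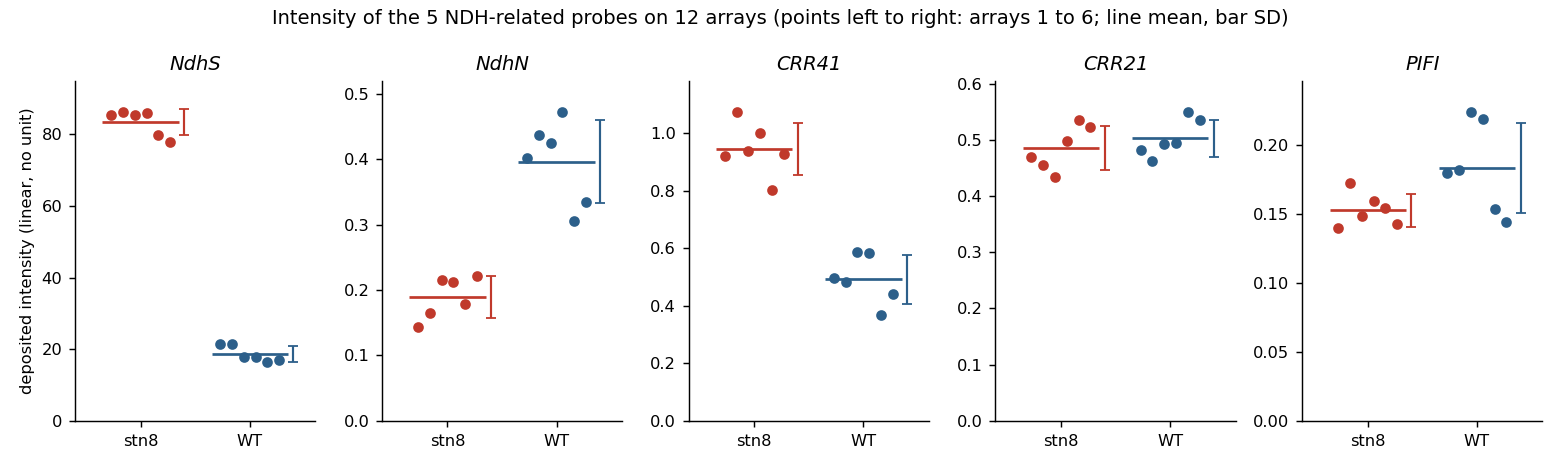
Deposited intensity (linear axis from 0, a scale of its own for each gene) of the 5 NDH-related probes, with stn8 on the left and WT on the right of each panel; points are arrays 1 to 6 from left to right, lines are means and bars the SD over 6 arrays. The groups are apart for *NdhS*, *NdhN* and *CRR41* and overlap for *CRR21* and *PIFI*.

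*NdhS* (AT4G23890, also known as *CRR31*) encodes a stromal subunit at the site where the complex accepts electrons from ferredoxin. Its intensity was 77.9 at the lowest, 85.4 at the median and 86.2 at the highest of the 6 stn8 arrays, against 16.5, 17.9 and 21.4 in WT. Every stn8 array was above every WT array. The mean was 83.5 ± 3.62 in stn8 and 18.7 ± 2.18 in WT (SD, n = 6 each), a ratio of 4.47 stn8 over WT, and the log2 fold change was 2.47 ± 0.06 (SE). Of the 3437 probes, 153 had a higher log2 fold change.

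The *NdhS* probe was the brightest or the second brightest on each stn8 array and between the 21st and the 24th on the WT arrays. Quantile normalization sets a value by its rank on the array. For *NdhS* it gave log2 values of 6.78 or 6.99 in stn8, against 6.28 to 6.43 as deposited. In WT it gave 4.27 to 4.49, against 4.05 to 4.42. The brightest probe of an array was at 84.4 to 93.9 in stn8 and at 166 to 193 in WT. The reported log2 fold change and its SE rest on the normalized values. The log2 fold change varied with the scaling. It was 2.17 without normalization, 2.12 with median centring and 1.88 with cyclic loess, and 2.32 without WT arrays 5 and 6. All of these were positive.

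Spots numbered close to *NdhS* also differed between the groups. Within 4 spot numbers there were 7 other probes with values, of which 3 were higher in stn8 on all arrays and 4 were lower on all arrays. Of the 4 lower ones, 3 were listed at 0 on all 6 stn8 arrays and the other on 3 of them, while none was at 0 in WT. The labels do not state how the spots were laid out, and the part of such neighbours in the *NdhS* value was not tested.

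**Figure D2:**
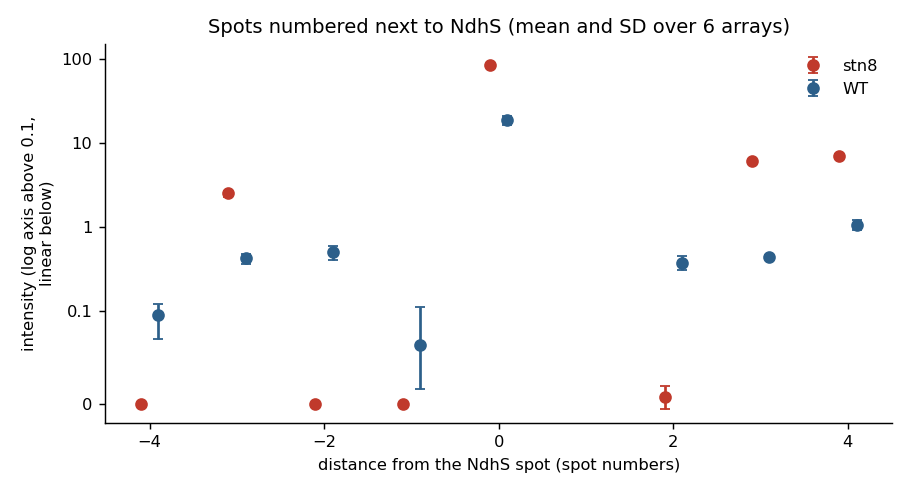
Mean intensity (SD over 6 arrays as bars; logarithmic axis above 0.1 and linear below) of the *NdhS* probe and of the spots up to 4 spot numbers away, stn8 in red and WT in blue. *NdhS* itself is at 83.5 in stn8 and 18.7 in WT, and 3 of its neighbours are at 0 on all stn8 arrays.

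*NdhN* (AT5G58260) encodes a subunit of subcomplex A, the stromal part next to the membrane arm. Its intensity was 0.143 at the lowest, 0.195 at the median and 0.221 at the highest in stn8, against 0.306, 0.413 and 0.472 in WT. All 6 stn8 arrays lay below all 6 WT arrays. The mean was 0.189 ± 0.0319 in stn8 and 0.396 ± 0.0638 in WT (SD, n = 6 each), a ratio of 0.478 stn8 over WT. The log2 fold change was -1.05 ± 0.10 (SE), and 636 of the 3437 probes had a lower one. It was -1.16 without WT arrays 5 and 6 and -0.87 with a pseudocount, so the direction of this subunit was opposite to that of *NdhS* under each alternative tried.

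The WT values of *NdhN* followed the array medians in part. They were 0.401 and 0.437 on WT arrays 1 and 2, 0.425 and 0.472 on WT arrays 3 and 4, and 0.306 and 0.335 on WT arrays 5 and 6. After quantile normalization the log2 SD was 0.19 within stn8 and 0.16 within WT. Within 4 spot numbers, the spot brightest in stn8 was at 1.27 in stn8 and 0.325 in WT, and the spot brightest in WT was at 0.225 in stn8 and 0.415 in WT.

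*CRR41* (AT1G51100) encodes a stromal protein that helps to assemble subcomplex A, the part that contains NdhN. Its intensity was 0.803 at the lowest, 0.934 at the median and 1.07 at the highest in stn8, against 0.367, 0.490 and 0.586 in WT. The groups did not overlap, and the factor was higher in stn8 while the subunit of the same subcomplex was lower. The mean was 0.945 ± 0.0905 in stn8 and 0.492 ± 0.0844 in WT (SD, n = 6 each), a ratio of 1.92 stn8 over WT. The log2 fold change was 0.75 ± 0.09 (SE), 0.95 without normalization and 0.67 without WT arrays 5 and 6. A change of at least this size in either direction was common, since 51.0% of all probes had a larger one. Its WT values were highest on arrays 3 and 4 (0.586 and 0.582) and, like those of *NdhN*, lowest on arrays 5 and 6 (0.367 and 0.440). Of 8 other probes within 4 spot numbers, 4 were higher in stn8 on all arrays and 2 were lower on all arrays.

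*CRR21* (AT5G55740) encodes a pentatricopeptide repeat protein that directs the editing of a site in the plastid *ndhD* transcript. Its intensity was 0.434 at the lowest, 0.484 at the median and 0.535 at the highest in stn8, against 0.462, 0.493 and 0.550 in WT. The ranges overlapped, with 2 stn8 arrays below all WT arrays, 2 WT arrays above all stn8 arrays, and the other values in the shared range. The mean was 0.486 ± 0.0394 in stn8 and 0.503 ± 0.0333 in WT (SD, n = 6 each), a ratio of 0.967 stn8 over WT. The log2 fold change was -0.18 ± 0.08 (SE).

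The small difference in *CRR21* depended on the processing. It was -0.05 ± 0.07 without normalization, -0.10 ± 0.10 with median centring and -0.07 ± 0.05 without WT arrays 5 and 6 (SE). With the sample number as a replicate block the log2 fold change was -0.18 ± 0.05 (SE). It passed the limma threshold there, with cyclic loess (-0.23 ± 0.09) and without WT array 3 (-0.22 ± 0.09), but not in the fit reported. These calls show only how the processing moved the fit. They are no test of *CRR21*, which was chosen with the comparison known. Its WT values were highest on arrays 5 and 6 (0.550 and 0.536), the WT arrays with the lowest medians. In the deposited values the within-group SD was 8.11% of the mean in stn8 and 6.63% in WT. After quantile normalization the log2 SD of *CRR21* was 0.09 within stn8 and 0.19 within WT.

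*PIFI* (AT3G15840) encodes a plastid protein needed for the rise of chlorophyll fluorescence after illumination, a readout of NDH-dependent reduction of plastoquinone. Its intensity was 0.140 at the lowest, 0.151 at the median and 0.173 at the highest in stn8, against 0.144, 0.181 and 0.224 in WT. Stn8 values overlapped those of WT, with 2 stn8 arrays below all WT arrays and 4 WT arrays above all stn8 arrays. The mean was 0.153 ± 0.012 in stn8 and 0.184 ± 0.0327 in WT (SD, n = 6 each), a ratio of 0.833 stn8 over WT. The log2 fold change was -0.07 ± 0.07 (SE), and 91.7% of all probes had a larger change in either direction.

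After quantile normalization the log2 SD of *PIFI* was 0.10 within stn8 and 0.14 within WT. In the deposited values the larger spread lay in WT. Arrays 3 and 4 were at 0.224 and 0.219, arrays 1 and 2 at 0.179 and 0.182, and arrays 5 and 6 at 0.153 and 0.144, the order of the array medians. Without normalization the log2 fold change was -0.25 ± 0.12, with median centring -0.30 ± 0.08 and without WT arrays 5 and 6 -0.16 ± 0.06 (SE). *PIFI* passed the limma threshold with median centring and without those WT arrays. As for *CRR21*, these calls show only how the processing moved the fit and are no test of the gene.

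**Figure D3:**
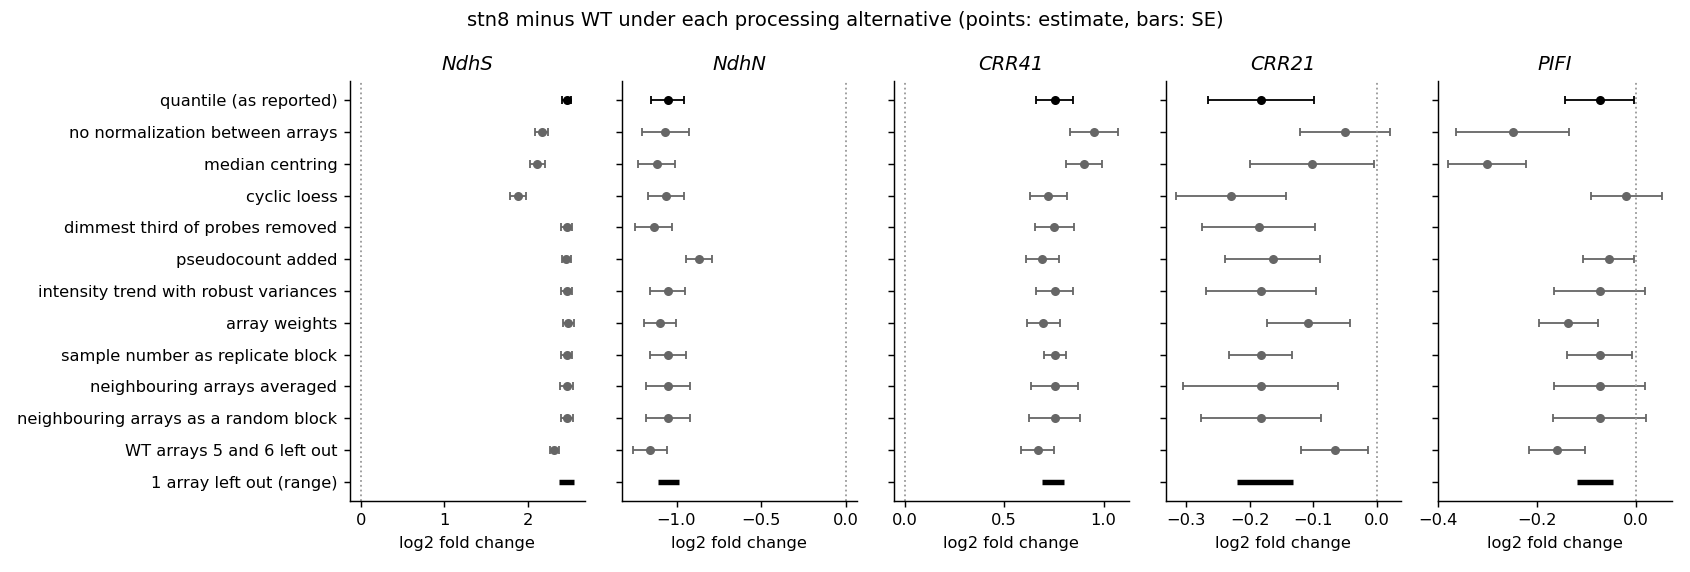
Log2 fold change, stn8 minus WT (horizontal axis, a scale of its own for each gene), of the 5 genes as reported and under 11 processing alternatives, with SE bars; the thick line at the bottom spans the 12 fits that leave out 1 array. The estimates of all 5 genes stay on 1 side of 0 throughout, with *NdhS* between 1.88 and 2.56. Those of *CRR21* and *PIFI* come as near to 0 as -0.05 and -0.02. *PIFI* has no value where the dimmest probes were removed.

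Pairs by sample number had the same directions. For *NdhS*, *NdhN* and *CRR41* this was fixed in advance, since with groups that do not overlap any pairing gives 6 of 6. Only the sizes of their log2 ratios are read here. In the deposited intensities, with each stn8 array set against the WT array of the same number, *NdhS* and *CRR41* were higher in stn8 in 6 of 6 pairs, with log2 ratios of 2.00 to 2.27 and of 0.68 to 1.16. *NdhN* was lower in 6 of 6 pairs, with log2 ratios of -1.48 to -0.60. *CRR21* and *PIFI* were each lower in stn8 in 5 of 6 pairs.

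Few other NDH-related genes had a probe of their own in the annotation. A list of 53 gene loci of the complex, its assembly, the editing of its transcripts and its function was searched. It contained 7 with a probe of their own, the 5 described above and 2 more. Of 20 nuclear subunits 2 had one, and of 12 plastid-encoded subunits 0. Of 11 genes of related electron flow (cyclic flow through PGR5, plastid terminal oxidase, ferredoxin and its reductase) 0 had one. Most of the complex therefore had no annotated probe of its own. Whether any of the 1876 probes with no listed gene belong to it is unknown.

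Both other genes passed the limma threshold and were higher in stn8, where 34.7% of all probes were called in that direction. Without WT arrays 5 and 6 their log2 fold changes were 1.38 for *Cpn60beta4* and 0.49 for *OTP85*, and 72.6% of all probes were called in either direction. The list was drawn up with earlier results of these data known. The adjusted p-values of both genes, given below, are therefore no independent test. *Cpn60beta4* (AT1G26230), a chaperonin subunit needed to fold the plastid-encoded NdhH subunit, had an intensity of 0.264 at the lowest, 0.354 at the median and 0.433 at the highest in stn8, against 0.120, 0.148 and 0.177 in WT. The groups did not overlap. The mean was 0.351 ± 0.0597 in stn8 and 0.149 ± 0.0185 in WT (SD, n = 6 each), and the log2 fold change was 1.35 ± 0.15 (SE, limma, adjusted p = 6.07e-06). This p-value takes the 12 arrays as independent, which the labels do not state. With neighbouring arrays averaged the limma adjusted p was 0.00341, and with them as a random block 5.38e-05. Of 6 other probes within 4 spot numbers of *Cpn60beta4*, 0 were higher in stn8 on all arrays and 2 were lower on all arrays.

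*OTP85* (AT2G02980), a pentatricopeptide repeat protein that edits a site in *ndhD*, as does *CRR21*, had an intensity of 0.249 at the lowest, 0.284 at the median and 0.320 at the highest in stn8, against 0.143, 0.191 and 0.263 in WT. Of the 6 stn8 arrays 5 were above all WT arrays, and 1 lay within their range. The mean was 0.284 ± 0.0226 in stn8 and 0.201 ± 0.0466 in WT (SD, n = 6 each), and the log2 fold change was 0.58 ± 0.10 (SE, limma, adjusted p = 0.000196). The limma adjusted p was 0.0145 with neighbouring arrays averaged and 0.00154 with them as a random block. *OTP85* was higher in stn8 in 6 of 6 numbered pairs. Its WT values too were highest on arrays 3 and 4 (0.251 and 0.263). Within 4 spot numbers of *OTP85* there were 7 other probes with values. Of these, 5 were higher in stn8 on all arrays and 0 were lower on all arrays. The median of their mean intensities was 0.393 in stn8 and 0.124 in WT. The part of such neighbours in the *OTP85* value was not tested. Whether the change of *OTP85* differed from that of *CRR21* was not tested.

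**Figure D4:**
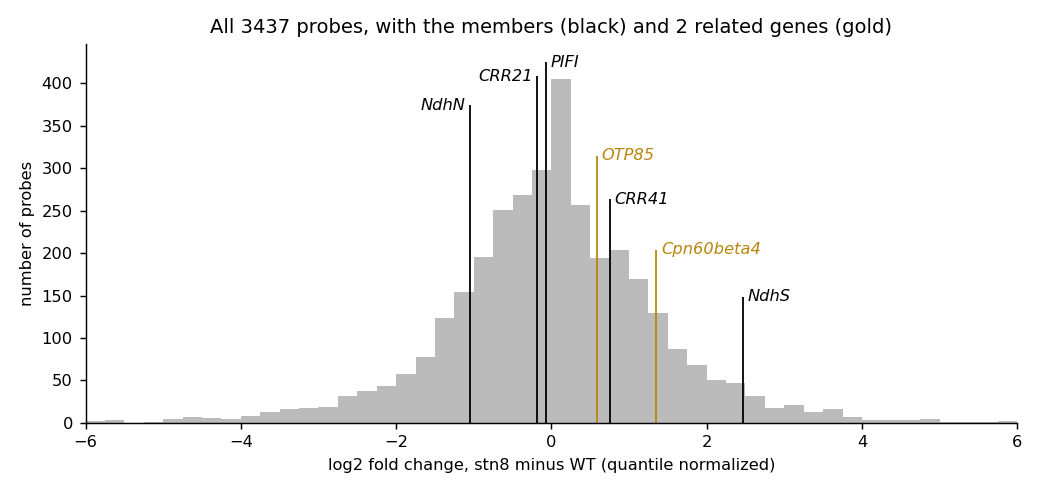
Number of probes (vertical axis) by log2 fold change, stn8 minus WT, for all 3437 probes in grey (62 lie beyond the ends of the axis), with the 5 members as black lines and *Cpn60beta4* and *OTP85* in gold. *NdhS* lies far to the right at 2.47, *NdhN* to the left at -1.05, and *CRR21* and *PIFI* near the centre.

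The genes closest in pattern were found by the root mean square difference of log2 profiles over the 12 arrays, each centred on its mean, among 615 other probes of 1 gene that were above 0 on all arrays. For *NdhS* they were *AT1G35510* (difference 0.12, intensity 5.13 ± 0.228 in stn8 and 0.767 ± 0.0549 in WT) and *AT1G17744* (difference 0.12, intensity 2.49 ± 0.201 in stn8 and 0.420 ± 0.0589 in WT). The spot of *AT1G17744* lay 3 spot numbers from that of *NdhS*. For *NdhN* they were *AT2G46300* (difference 0.10, log2 fold change -1.07) and *AT5G40070* (difference 0.16, log2 fold change -0.87).

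For *CRR41* the closest profiles were those of *AT2G30100* (difference 0.09, log2 fold change 0.65) and of *PRA1.B6* (difference 0.12, log2 fold change 0.70), a member of the prenylated RAB acceptor family. Those closest to *CRR21* were *AT4G30680* (0.09) and *AT4G21170* (0.10), and those closest to *PIFI* were *AT3G58830* (0.09) and *AT3G16310* (0.11), each given with its root mean square difference. The other NDH-related genes were not among these closest profiles. Since most probes differed between the groups, a close profile reflects mainly a group difference of the same size.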

How the data were processed

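Total RNA of 6 stn8 and 6 WT samples was measured on arrays, with groups and numbers taken from the sample titles. The authors deposited intensity values; that their scale is linear was inferred from their range. For background correction, scaling and array design, the steps taken are not stated in the labels. Of 3439 rows 2 held no value. The annotation named 1 gene for 692 probes and several for 869, and 1876 were not listed; 690 of the 692 matched the TAIR10.1 gene table, through which symbols were updated.

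Each 0 was replaced by the lowest positive value on that array before log2 conversion and quantile normalization. The stn8 effect was fitted with limma 3.58.1 (R 4.3.3, lmFit and eBayes, two-sided, Benjamini-Hochberg over 3437 probes, threshold 0.05). The fit was tested on simulated data. Figures were drawn with matplotlib 3.10.9. The number of arrays limits the precision. Members, lists and tests were chosen with earlier results of these data known. Named were the members, the listed NDH-related genes with a probe of their own, and the 2 closest profiles of each member.

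Same-numbered arrays of the groups deviated together from their group means over the 3079 probes above 0 on all arrays (correlations of 0.17 to 0.33 in all 6 pairs, against -0.28 to 0.29 for other numbers), and the meaning of the numbers is not stated in the titles.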

Additional observations from a re-analysis of the deposited data

How the results depend on the processing

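The alternatives were 3 other scalings (none, median centring and cyclic loess), a pseudocount of 0.0584, removal of probes in the lowest 33.3% of intensity, weights per array, a robust fit with a variance trend, a replicate block by sample number, neighbouring arrays averaged or taken as a random block, WT arrays 5 and 6 left out, and each of the 12 arrays left out. The direction of *NdhS*, *NdhN*, *CRR41*, *CRR21* and *PIFI* was the same in all of them, and *PIFI* had no value where dim probes were removed. By more than the spread between arrays moved *NdhS* without normalization (2.17), with median centring (2.12), with cyclic loess (1.88) and without WT arrays 5 and 6 (2.32), *CRR41* without normalization (0.95), *PIFI* without normalization (-0.25) and with median centring (-0.30), and *NdhN* with the pseudocount (-0.87). With 1 array left out, *NdhS* ranged from 2.38 to 2.56, *NdhN* from -1.11 to -0.99, *CRR41* from 0.69 to 0.80, *CRR21* from -0.22 to -0.13 and *PIFI* from -0.12 to -0.05. The cause of these shifts was not tested. *Cpn60beta4* and *OTP85* passed the limma threshold in all 23 alternatives, which shows only that the processing did not change these calls. Of all probes 2421 were called as reported, 2477 with the replicate block, which changed among the 7 genes only the call of *CRR21*, 2011 with neighbouring arrays averaged and 2150 with them as a random block. Removing dim probes left 1865 called of 2292 tested, and over the other 8 of the 11 alternatives that leave out no single array the count was 2414 to 2505. With 1 array left out the count was 2342 to 2421. No background level is given in the files, so how far the dim probes (*PIFI*, and *NdhN* in stn8) lay above it is unknown.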

Other observations

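Arrays with neighbouring numbers (1 and 2, 3 and 4, 5 and 6) were closest for the brightest of these probes. For *NdhS* the members of such a pair differed by at most 2.44% of their mean in stn8 and 2.51% in WT, while the means of the 3 WT pairs were 21.4, 17.9 and 16.7. For *PIFI* the largest difference within a pair was 20.9% in stn8, and the WT pair means were 0.181, 0.221 and 0.149. For *CRR21* it was 13.7% in stn8 and 4.21% in WT. For *NdhN* the differences within a pair reached 21.8% in stn8 and 10.5% in WT, and for *CRR41* 15.3% in stn8 and 18.0% in WT. The titles do not say what neighbouring numbers share.

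Of the 869 probes that name several genes, 2 included a gene of the NDH lists and 1 a gene of the related electron flow list, and their values are not assigned to any gene. Among 14 groups of 6 values, those of the 7 NDH-related genes in stn8 and in WT, 0 had a single array far from the others by Dixon's criterion.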
